A study of Arabidopsis thaliana with 36 samples.

Results

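The genes described here stood at least 1 log2 unit above their own untreated level after 24 h of auxin in roots of CASP1::shy2-2/slr-1, and at or below their own untreated level after 24 h in roots of slr-1. They numbered 37 of the 32678 annotated loci counted. Levels were counts per 1 M reads in genes (CPM). Each group's level was log2(mean CPM of 3 libraries + 1), and the choice used only the control and 24 h groups of both genotypes. Values of those 4 groups are therefore given as a description without a test, and tests compare only groups taken at 2 to 16 h. The fits behind them used all 36 libraries for the spread between replicates. Results on the 2 to 16 h libraries alone are given where they end a member's call at 16 h or in the comparison of the 4 to 16 h changes. Calls of single members in the other comparisons were not checked on those libraries. All 37 members passed the filter on low counts, and 36 are annotated as protein coding.

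The study sequenced messenger RNA of dissected roots of 7-day-old Arabidopsis thaliana seedlings (Col-0), with the shoot and the root tip cut away. Every plant carried slr-1, controls included. One genotype was slr-1 alone, and the other, CASP1::shy2-2/slr-1, carried in addition shy2-2 driven by the promoter of CASP1, a gene active in differentiating endodermis. Each genotype was sampled untreated (control) and after 2, 4, 8, 16 and 24 h on 10 µM 1-naphthaleneacetic acid (NAA), a synthetic auxin, with 3 libraries in each of the 12 groups. The labels do not say that the 3 libraries came from separate cultures, so p-values measure the spread between these libraries, which may be technical.

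Auxin acts on transcription by triggering the breakdown of Aux/IAA proteins, which otherwise hold auxin response factors (ARFs) inactive. The slr-1 allele is a stabilised form of the repressor IAA14 and blocks lateral root initiation in the pericycle. The shy2-2 allele is a stabilised form of the repressor IAA3, and under the CASP1 promoter it blocks auxin signalling in the endodermis, the cell layer over the pericycle that must shrink for a lateral root to form.

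Reads in genes ran from 28.1 to 49.0 M per library, and from 37.8 to 48.5 M in the 12 libraries used for the choice. Some libraries stood apart: replicate 3 of the slr-1 controls, replicate 2 of the CASP1::shy2-2/slr-1 controls, and replicate 3 of both genotypes at 16 h. Codes of these 16 h libraries carry the suffix n, which the labels do not explain. That suffix was uneven between the genotypes: it was on 1 slr-1 and 2 CASP1::shy2-2/slr-1 libraries at 4 h and again at 8 h, on 3 and 2 at 2 h, and on 1 and 1 at 16 h. The 1 remaining library of 2 h carried x, and none of the controls or 24 h libraries had either. CASP1 (AT2G36100) itself had 41.7, 75.6 and 43.9 CPM in untreated CASP1::shy2-2/slr-1 and 0.710, 0.896 and 1.01 CPM at 24 h, and 0.911, 0.562 and 0.704 CPM in slr-1 at 24 h. Transcripts of IAA3 (SHY2, AT1G04240), which gene counts do not separate from those of the transgene, stood at 22.3 to 25.2 CPM in CASP1::shy2-2/slr-1 at 16 h and at 82.2 to 88.5 CPM in slr-1. The summed level of 26 root tip and cap markers, all with reads, was 122 to 136 CPM in untreated CASP1::shy2-2/slr-1 and 201 to 273 CPM in the slr-1 controls, and 165 to 173 against 242 to 279 CPM at 24 h. The summed level of 88 photosynthesis genes was 1091 to 1353 against 1360 to 1977 CPM in the controls and 1073 to 1160 against 1337 to 1538 CPM at 24 h. Both lists were lower in CASP1::shy2-2/slr-1 in the controls and at 24 h. Cortex and pericycle markers summed to 627 to 739 against 789 to 1056 CPM in the controls. At 24 h they overlapped, at 1022 to 1065 against 1062 to 1138 CPM. Cell cycle genes were higher in untreated CASP1::shy2-2/slr-1, at 2540 to 2583 against 2335 to 2440 CPM. At 24 h they were lower there, at 2580 to 2771 against 2808 to 2878 CPM. Sums of Casparian strip, xylem, phloem, and root hair and epidermis lists overlapped in the controls. Casparian strip genes were higher in CASP1::shy2-2/slr-1 at 24 h, at 974 to 990 against 760 to 858 CPM. Xylem markers were then lower, at 1250 to 1298 against 1366 to 1445 CPM. Phloem and root hair and epidermis lists still overlapped. The part of these lists in the members' values was not tested. In sections of many cell types, fewer cells of a type and less RNA per cell cannot be told apart.

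Before treatment most members were at a lower level in CASP1::shy2-2/slr-1. In the controls, CASP1::shy2-2/slr-1 had the lower mean for 32 of the 37, by at least 1 log2 unit for 25 (1.58% of all genes), with a median difference of -1.19 against 0.02 over the 20939 genes tested. All 3 CASP1::shy2-2/slr-1 controls lay below all 3 slr-1 controls for 28 members, and for 16.8% of all genes. All 3 of its 24 h libraries lay above its 3 controls for each of the 37, against 33.6% of all genes. After 24 h the order of the genotypes was turned, with 31 members higher in CASP1::shy2-2/slr-1 and a median difference of 0.75. All 3 libraries lay above the 3 slr-1 libraries of 24 h for 27 members, against 22.1% of all genes. Since the choice used these values, the counts only describe it.

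For most members the 24 h level lay close to the untreated slr-1 level. The mean in CASP1::shy2-2/slr-1 at 24 h exceeded that of the slr-1 controls for 21 members, and by at least 1 log2 unit for 6: AT4G11290, TBL4, GLL22, AT4G32950, AT5G28000 and AT1G11160. It was the highest of the 12 group means for 7 members: AT4G11290, GLL22, ORA59, RBK1, NAC011, AT1G11160 and AT5G36960. These names were picked after their values were seen.

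The pattern used for the choice at 24 h did not hold along the whole course. Relative to its own controls, CASP1::shy2-2/slr-1 stood at least 1 log2 unit up for 7, 7, 13 and 23 members at 2, 4, 8 and 16 h, against 2.98, 1.73, 1.19 and 1.95% of all genes. Its highest group mean fell at 24 h for 20 members, at 16 h for 13 and earlier for 4. The median change of the members was 0.28, 0.28, 0.63, 1.12 and 1.39 at the 5 times in CASP1::shy2-2/slr-1 and -0.14, -0.33, -0.23, -0.01 and -0.40 in slr-1. In slr-1, 7 members stood at least 1 log2 unit above their controls at some time from 2 to 16 h: AT2G21100, ANNAT7, GLL22, AT1G72490, TBL4, AT4G32950 and AT4G26540. Of all genes, 7.77% did so. At 24 h, 11 members stood at least 1 log2 unit below their slr-1 controls, against 5.45% of all genes, and the 3 libraries lay below all 3 controls for 22 members, against 23.8%.

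**Figure D1:**
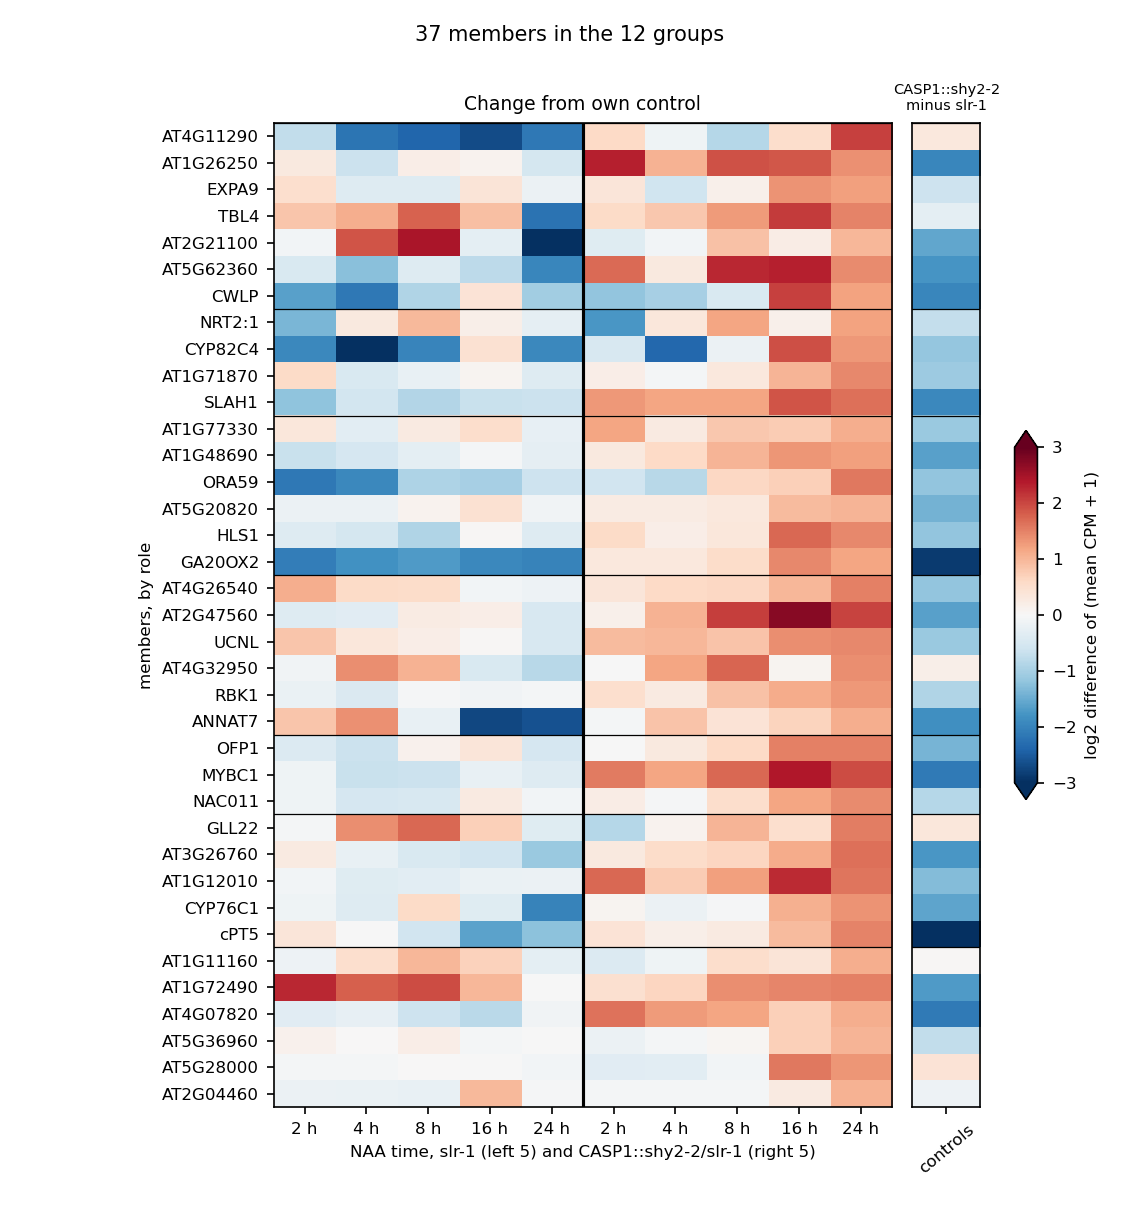
Log2 difference of (mean CPM + 1) between each NAA time and the control of the same genotype for the 37 members, rows grouped by role, with the difference between the controls of the genotypes in the narrow panel. Reds at 24 h in the right columns and blues at 24 h in the left columns follow from the choice of members. At 2, 4, 8 and 16 h the right columns hold 7, 7, 13 and 23 members at 1 or more, and 32 of the 37 cells in the narrow panel are below 0.

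The least rise among members with at least 5 CPM at 24 h was 1.00 (AT2G21100) and the next 1.08 (AT1G11160), while WRKY18 at 0.99 and ATL5 at 0.97 fell just outside. The slr-1 change was -0.00 for AT1G72490 and -0.05 for RBK1, while CYCP3;2 at 0.02 and AT1G60010 at 0.05 were left out. With each of the 12 libraries of the choice left out in turn, 26 of the 37 members were kept every time. Without replicate 3 of the slr-1 controls 30 were kept, and the 7 lost were NRT2:1, AT4G32950, AT1G11160, AT1G72490, AT5G36960, NAC011 and AT2G04460. Without replicate 2 of the CASP1::shy2-2/slr-1 controls the rule took 57 loci, 34 of them members. The mirrored rule, a rise in slr-1 alone, took 132 loci, and 245 loci stood up by at least 1 in both genotypes.

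The genotypes were then compared at the times that the choice did not use. These differences were not taken relative to the controls, where 25 members were already lower in CASP1::shy2-2/slr-1 by at least 1 log2 unit (1.58% of all genes). The choice favoured that untreated difference, and how far the calls carry it forward was not tested. At 2 h, 18 members were lower and 1 was higher in CASP1::shy2-2/slr-1 (edgeR quasi-likelihood test, adjusted p under 0.05), against 9.22% lower and 9.05% higher of all genes tested. At 4 h, 15 were lower and 2 higher, against 8.84 and 7.18%. At 8 h, 11 were lower and 2 higher, against 8.08 and 6.58%. At 16 h, 5 were lower and 6 higher, against 5.08 and 3.58%. The fitted differences of the members had a median of -0.72, -0.65, -0.37 and 0.12 at these times, and those of all genes 0.01, -0.02, -0.01 and 0.00.

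At the early times the same members were often called again. CASP1::shy2-2/slr-1 was lower at each of 2, 4 and 8 h for 11 members, against 2.98% of all genes, and at 1 or more of these times for 19 members, against 16.6%. The 11 were AT2G21100, AT1G71870, AT5G20820, AT4G26540, ANNAT7, OFP1, CYP76C1, cPT5, AT3G26760, AT1G72490 and AT5G36960. The peroxidase gene AT4G11290 alone was higher at each of these times, against 2.23% of all genes. For 16 members neither call was made at 2, 4 or 8 h, as for 68.5% of all genes. With suffix n as a term in the fit, 16, 16 and 12 members were called lower at 2, 4 and 8 h and 3, 1 and 1 higher, without the library of suffix x. That fit also called more of all genes at 2 h, as given with the processing settings, so the shares above do not apply to its counts. With the 4 h replicate 2 of CASP1::shy2-2/slr-1 left out, 9 members in place of 15 were called lower at 4 h. At 16 h the count of 5 lower became 2, 3 and 1 without replicates 1 and 2 of slr-1 and replicate 2 of CASP1::shy2-2/slr-1. Counts of all genes moved too. With 1 library left out, genes called lower ran from 862 to 1851 at 4 h and from 676 to 1717 at 16 h, against 1851 and 1064 with every library.

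**Figure D2:**
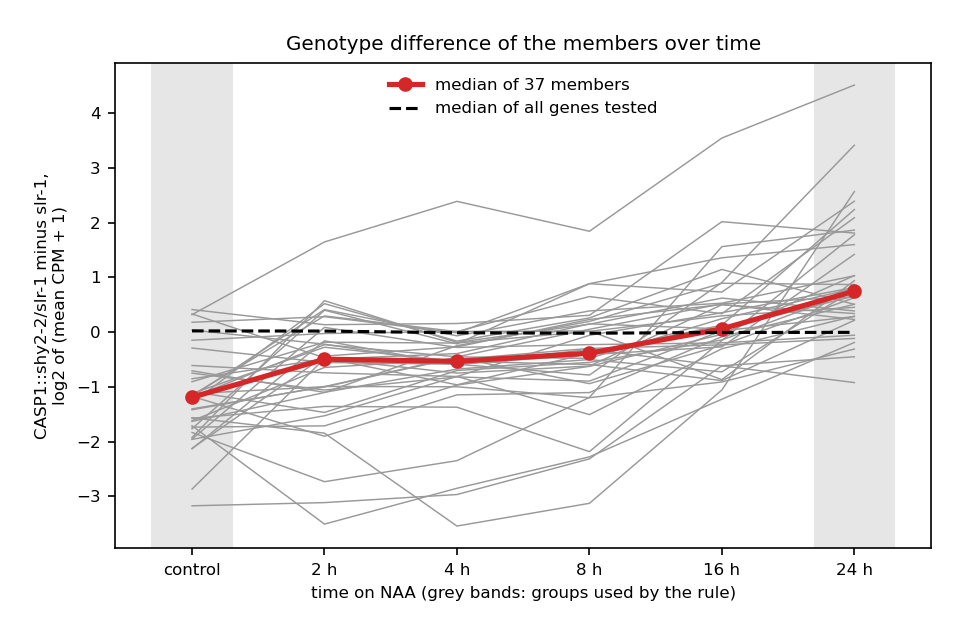
Difference between the genotypes (CASP1::shy2-2/slr-1 minus slr-1, log2 of mean CPM + 1) for each of the 37 members (grey lines) over time, with their median (red) and the median of the 20939 genes tested (dashed). Grey bands mark the groups used for the choice. The median of the members lies at -1.19 in the controls, between -0.53 and -0.38 from 2 to 8 h, at 0.06 at 16 h and at 0.75 at 24 h.

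Between 4 and 16 h of NAA, 24 members rose and 1 fell in CASP1::shy2-2/slr-1, against 24.1 and 20% of all genes. In slr-1, 10 rose and 6 fell over the same interval, against 17.2 and 15.8%. The change from 4 to 16 h itself differed between the genotypes for 9 members, each time with the more positive change in CASP1::shy2-2/slr-1, against 2.18% of all genes in that direction. None differed in the other direction, where 1.47% of all genes did. Since this step lies within the course from control to 24 h, the choice favoured a more positive change in CASP1::shy2-2/slr-1. How far it did so was not tested. At an unadjusted p under 0.05 edgeR gave 23 and 0 members, against 8.14 and 6.44% of all genes, and DESeq2 at an adjusted p under 0.05 gave 12 and 0, against 2.68 and 1.94%. Fitted on the 2 to 16 h libraries alone, 6 members were called (1.53% of all genes), and the calls of EXPA9, AT4G26540, AT3G26760 and AT5G36960 were lost. The median of this difference was 1.09 for the members and 0.01 for all genes. With the replicate number as a block over all groups 8 members were called (2.14% of all genes). With the block at 16 h alone, where same-numbered libraries deviated together, 12 were called (2.71%), in a fit added after seeing the data.

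**Figure D3:**
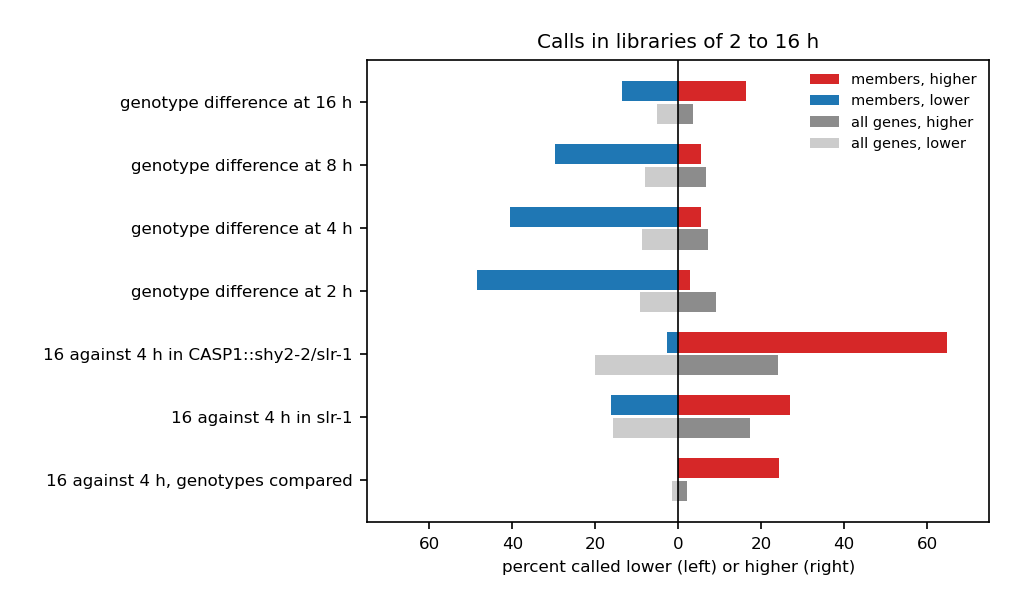
Percent of the 37 members (coloured bars) and of the 20939 genes tested (grey bars) called at an adjusted p under 0.05 in each of the 7 comparisons of 2 to 16 h libraries, lower to the left of 0 and higher to the right. The members exceed all genes most clearly to the left at 2 h (18 members) and to the right for 16 against 4 h in CASP1::shy2-2/slr-1 (24 members).

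Upstream sequence was searched for letters known from auxin and stress response elements. Windows of 250 bases before the annotated start were taken from the TAIR10.1 genome, with RefSeq gene models, for the 36 protein-coding members and for 27443 genes in all, on both strands. TGTCTC, the core element bound by ARFs, was in 3 member windows (8.33%) and in 10.9% of all windows. TGTCGG, another ARF element, was in 1 member window (2.78%) and 4.16% of all. TTGAC, the core of WRKY binding sites, was in 15 (41.7%) and 44.9%, and CACGTG, the G-box, in 2 (5.56%) and 6.49%. The evening element AAAATATCT was in 3 (8.33%) and 2.36%, and GCCGCC, the core bound by ERF factors, in 2 (5.56%) and 1.87%. These are matches of letters, with no measure of binding. The 3 windows with TGTCTC are shown 5′ to 3′ on the gene's strand, since they hold the ARF core upstream of a member, with the element or its reverse complement GAGACA in capitals. They lie at chr4:15451738-15451987 (plus strand), chr3:7286443-7286692 (minus) and chr3:7796461-7796710 (minus) in TAIR10.1.
CYP82C4: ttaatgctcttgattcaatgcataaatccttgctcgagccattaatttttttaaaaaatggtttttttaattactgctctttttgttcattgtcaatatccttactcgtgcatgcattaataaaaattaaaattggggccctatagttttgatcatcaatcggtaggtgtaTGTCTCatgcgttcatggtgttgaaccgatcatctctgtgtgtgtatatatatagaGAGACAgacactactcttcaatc
UCNL: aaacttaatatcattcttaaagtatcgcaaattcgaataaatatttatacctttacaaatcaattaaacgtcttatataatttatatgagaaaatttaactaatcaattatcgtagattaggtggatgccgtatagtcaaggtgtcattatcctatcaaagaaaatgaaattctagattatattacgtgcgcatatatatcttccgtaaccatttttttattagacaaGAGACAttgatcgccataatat
CWLP: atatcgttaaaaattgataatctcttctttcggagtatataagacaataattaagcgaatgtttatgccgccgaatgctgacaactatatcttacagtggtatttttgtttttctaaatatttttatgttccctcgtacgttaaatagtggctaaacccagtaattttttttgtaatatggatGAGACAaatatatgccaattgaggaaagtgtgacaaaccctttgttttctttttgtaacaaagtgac
The CYP82C4 window holds both orientations, and those of UCNL and CWLP hold 1 match each, on the other strand.

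Members were grouped by annotated role for the description that follows, with the groups drawn after their values were known. Among the 7 genes of the cell wall, the class III peroxidase gene AT4G11290 (chromosome 4, 6869863 to 6871705, plus strand, TAIR10.1) was called higher in CASP1::shy2-2/slr-1 at 2, 4, 8 and 16 h. Of the other members, AT2G21100, AT5G20820 and cPT5 were called lower at all 4 times, and ANNAT7 lower and then higher. Enzymes of this class oxidise phenolics in the wall. Its levels at 2 h were 7.81, 10.4 and 6.68 CPM in slr-1 and 34.6, 32.5 and 17 CPM in CASP1::shy2-2/slr-1, and at 16 h 1.82, 0.923 and 1.45 and 28.5, 25.1 and 27.2 CPM. The libraries of the genotypes did not overlap at either time. The differences, in log2 units with the standard error after ±, were 1.74 ± 0.34 (adjusted p = 0.000544) at 2 h, 2.8 ± 0.37 (adjusted p = 4.57e-06) at 4 h, 2.25 ± 0.38 (adjusted p = 0.000142) at 8 h and 4.26 ± 0.40 (adjusted p = 6.49e-09) at 16 h by edgeR. Controls stood at 16.9, 9.87 and 16.7 CPM in slr-1 and 13.6, 28.4 and 12.9 CPM in CASP1::shy2-2/slr-1, where they overlapped. At 24 h the values were 3.07, 1.93 and 2.48 against 84.7, 71.2 and 79.5 CPM. The gene thus had both the largest described rise in CASP1::shy2-2/slr-1 (2.04 log2 units) and, in slr-1, a low level from 4 h on. The change from 4 to 16 h did not pass the test in either genotype, with 0.62 ± 0.32 (adjusted p = 0.124) in CASP1::shy2-2/slr-1 and -0.84 ± 0.42 (adjusted p = 0.129) in slr-1.

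AT2G21100 (chromosome 2, 9048131 to 9049404, minus strand) encodes a dirigent-like protein, of a family that steers the coupling of phenolic radicals in lignan and lignin formation. In slr-1 it passed through a peak, at 15.4, 16.4 and 17.4 CPM at 2 h, 67.6, 71.4 and 61.1 CPM at 4 h, 83.4, 99.1 and 113 CPM at 8 h, 13.7, 11.8 and 16.7 CPM at 16 h and 1.64, 0.606 and 1.07 CPM at 24 h. In CASP1::shy2-2/slr-1 it stood at 5.4, 4.86 and 4.2 CPM at 4 h, 11.2, 11 and 8.96 CPM at 8 h, 7.17, 6.03 and 5.54 CPM at 16 h and 11.8, 11.3 and 11.2 CPM at 24 h. No library of the second genotype reached the lowest of the slr-1 libraries at 4, 8 or 16 h. It was lower there, with a difference of -3.79 ± 0.29 (adjusted p = 2.74e-10) at 4 h, -3.23 ± 0.28 (adjusted p = 2.01e-09) at 8 h and -1.16 ± 0.27 (adjusted p = 0.00515) at 16 h (edgeR). In slr-1 it fell from 4 to 16 h, with a change of -2.32 ± 0.27 (adjusted p = 1.49e-07), while CASP1::shy2-2/slr-1 changed by 0.3 ± 0.28 (adjusted p = 0.397), and the changes differed by 2.63 ± 0.38 (adjusted p = 5.78e-05). With the 16 h replicates 3 left out together, the 16 h difference no longer passed (adjusted p = 0.0802).

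EXPA9 (AT5G02260), an expansin that loosens walls, stood at 20.3, 22.2 and 16.9 CPM in slr-1 and 9.37, 9.79 and 13.4 CPM in CASP1::shy2-2/slr-1 at 4 h, and at 32.6, 40.6 and 31.1 and 50.5, 35.1 and 48.5 CPM at 16 h. Libraries of the genotypes were apart at 4 h and overlapped at 16 h. It rose in both genotypes, by 1.97 ± 0.24 (adjusted p = 4.45e-07) in CASP1::shy2-2/slr-1 and 0.73 ± 0.23 (adjusted p = 0.0155) in slr-1 (edgeR). The difference of these changes, 1.24 ± 0.33 (adjusted p = 0.0254), missed the threshold without replicate 1 or 2 of slr-1 at 4 h, replicate 1 or 3 of slr-1 at 16 h, replicate 1 or 2 of CASP1::shy2-2/slr-1 at 4 h or its replicate 1 at 16 h, with adjusted p from 0.0551 to 0.0900.

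AT5G62360, an inhibitor of invertases or pectin methylesterases by its annotation, stood at 3.29, 2.55 and 6.42 CPM in slr-1 and 7.17, 7.23 and 21.6 CPM in CASP1::shy2-2/slr-1 at 16 h. Replicate 3 of the second group was far above the rest, and all 3 lay above slr-1. The 16 h difference of 1.56 ± 0.38 (adjusted p = 0.00711) missed the threshold without that library (0.82, adjusted p = 0.159), and without replicate 1 or 2 of slr-1 (adjusted p = 0.0538 and 0.0654, edgeR). From 4 to 16 h it rose by 2.42 ± 0.39 (adjusted p = 2.84e-05) in CASP1::shy2-2/slr-1 and changed by 0.55 ± 0.39 (adjusted p = 0.29) in slr-1. The difference of these changes, 1.86 ± 0.55, was not called (adjusted p = 0.0571, edgeR). TBL4 (AT5G49340), of a family that acetylates wall polysaccharides, rose by 1.32 ± 0.37 (adjusted p = 0.00521) in CASP1::shy2-2/slr-1 over that interval. In slr-1 its values at 24 h were 0.599, 0.454 and 0.547 CPM after 11.1, 10.3 and 15.2 CPM at 16 h, against 13.9, 17.1 and 14.9 CPM in CASP1::shy2-2/slr-1 at 24 h, and the groups of 24 h did not overlap.

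CWLP (AT3G22120), annotated as a linker of wall and plasma membrane, rose from 4 to 16 h in both genotypes, by 4.6 ± 0.86 (adjusted p = 0.000128) in CASP1::shy2-2/slr-1 and 3.09 ± 0.74 (adjusted p = 0.00217) in slr-1 (edgeR). At 16 h it stood at 17.4, 19.9 and 3.46 CPM in slr-1 and 14.4, 14.9 and 3.22 CPM in CASP1::shy2-2/slr-1, and in both groups replicate 3 was far below the others. AT1G26250, an extensin-like structural wall protein, was called in none of the 7 tests (edgeR, smallest p before adjustment 0.0371). In CASP1::shy2-2/slr-1 its values were 16.7, 43.4 and 26.5 CPM untreated and already 201, 90.6 and 156 CPM at 2 h.

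**Figure D4:**
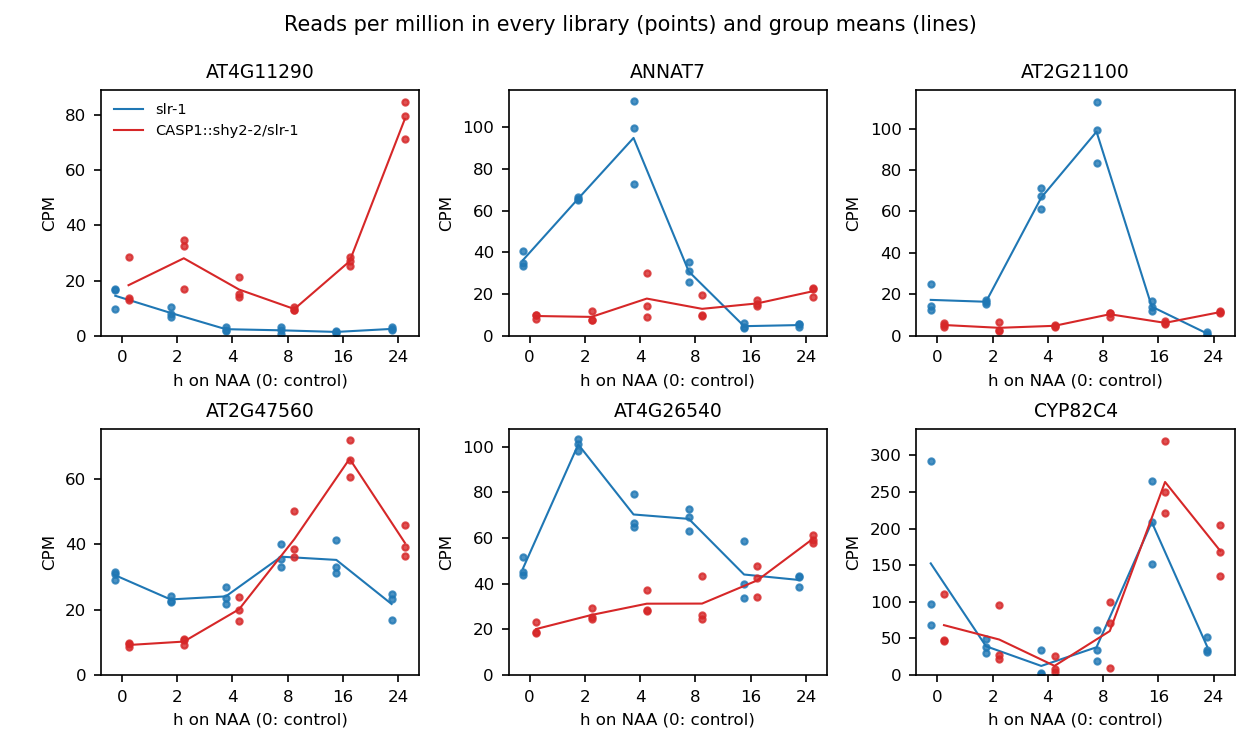
CPM in every library (points) and group means (lines) over time for 6 members in slr-1 (blue) and CASP1::shy2-2/slr-1 (red), with 0 marking the controls. AT2G21100 and ANNAT7 peak in slr-1 at 8 and 4 h, AT4G11290 is highest in CASP1::shy2-2/slr-1 at 24 h, AT4G26540 in slr-1 at 2 h, and CYP82C4 is higher at 16 h than at 4 h in both genotypes.

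Of the 4 genes of nutrient uptake and transport, 3 rose from 4 to 16 h in CASP1::shy2-2/slr-1 and 2 in slr-1, against 24.1 and 17.2% of all genes. At 16 h the adjusted p of the genotype difference ran from 0.124 to 0.85 by edgeR. CYP82C4 (AT4G31940), a cytochrome P450 that makes the iron-mobilising coumarin sideretin, stood at 2.3, 1.15 and 33.7 CPM in slr-1 and 3.8, 7.94 and 25.7 CPM in CASP1::shy2-2/slr-1 at 4 h. At 16 h it stood at 265, 152 and 209 and 249.5, 319.9 and 222 CPM, so that the genotypes overlapped at both times while 4 and 16 h did not. It rose by 4.34 ± 0.95 (adjusted p = 0.000711) in CASP1::shy2-2/slr-1 and by 3.99 ± 0.94 (adjusted p = 0.00183) in slr-1 (edgeR), and the genotype difference at 16 h had a 95% interval of -1.34 to 2.04. At 24 h the values were 31, 34.4 and 52 CPM in slr-1 and 136, 168 and 205 CPM in CASP1::shy2-2/slr-1. The slr-1 controls stood at 96.8, 68.8 and 292 CPM, with replicate 3 far above the others, against 47.7, 110.4 and 46.1 CPM.

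NRT2:1 (AT1G08090), the main high-affinity nitrate transporter of roots, stood at 2 h at 50.0, 58.2 and 55.2 CPM in slr-1 and 39.1, 17.1 and 18.4 CPM in CASP1::shy2-2/slr-1. It was lower in the latter at 2 h, with a difference of -1.15 ± 0.38 (adjusted p = 0.0373) and was not called at 4, 8 or 16 h (edgeR). Its controls were 104, 76.7 and 245 CPM in slr-1, and without replicate 3 of these the gene leaves the set. SLAH1 (AT1G62280), a homologue of the guard cell anion channel SLAC1, rose from 4 to 16 h by 0.66 ± 0.26 (adjusted p = 0.0387) in CASP1::shy2-2/slr-1 and changed by -0.19 ± 0.26 (adjusted p = 0.606) in slr-1. The difference of these changes, 0.85 ± 0.36, was not called (adjusted p = 0.249, edgeR). Untreated, SLAH1 stood at 40.8, 40.9 and 30.8 CPM in slr-1 and 6.76, 14.1 and 6.53 CPM in CASP1::shy2-2/slr-1, without overlap. At 2 h the slr-1 libraries stood at 14.2, 14.6 and 18.3 CPM and the others at 26.1, 23.1 and 22.3 CPM. The MATE efflux carrier gene AT1G71870 was lower in CASP1::shy2-2/slr-1 at 2, 4 and 8 h, the difference being -1.52 ± 0.18 (adjusted p = 7.21e-07) at 2 h and -0.56 ± 0.18 (adjusted p = 0.035) at 8 h, and differed by -0.13 ± 0.18 (adjusted p = 0.705) at 16 h (edgeR).

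Of the 6 hormone genes, 5 rose from 4 to 16 h in CASP1::shy2-2/slr-1 and 2 in slr-1, against 24.1 and 17.2% of all genes. The adjusted p of the difference between these changes ran from 0.0586 to 0.859 by edgeR. ORA59 (AT1G06160), an AP2/ERF factor of jasmonate and ethylene responses, stood at 0.754, 0.444 and 1.08 CPM at 4 h and 3.31, 2.9 and 6.03 CPM at 16 h in CASP1::shy2-2/slr-1. It rose by 2.35 ± 0.41 (adjusted p = 6.83e-05) there and by 1.5 ± 0.41 (adjusted p = 0.00676) in slr-1 (edgeR). HLS1 (AT4G37580), an acetyltransferase-like protein of apical hook formation, was low throughout, with 0.365, 0.37 and 0.64 CPM at 4 h and 3.61, 3.76 and 2.2 CPM at 16 h in CASP1::shy2-2/slr-1, where it rose by 2.73 ± 0.40 (adjusted p = 8e-06).

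GA20OX2 (AT5G51810), an enzyme of gibberellin synthesis, had 8.83, 9.23 and 2.43 CPM in untreated slr-1 and 0.151, 0.0206 and 0.0508 CPM in untreated CASP1::shy2-2/slr-1. It rose in CASP1::shy2-2/slr-1 from 0.292, 0.321 and 0.384 CPM at 4 h to 1.29, 0.793 and 3.63 CPM at 16 h, by 2.43 ± 0.68 (adjusted p = 0.00516), and stood at 1.53, 1.13 and 1.69 CPM at 24 h. In slr-1 it stood at 0.653, 0.979 and 1.53 CPM at 16 h and 0.677, 0.887 and 1.25 CPM at 24 h. Its 24 h levels in both genotypes thus lay below all the untreated slr-1 libraries.

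Of the auxin-related members, AT5G20820 (SAUR76), of the small auxin-upregulated RNA family, stood at 4.04, 4.6 and 6.86 CPM in slr-1 and 2.19, 0.946 and 3.17 CPM in CASP1::shy2-2/slr-1 at 2 h, and at 8.56, 9.26 and 7.95 and 4.09, 3.17 and 5.05 CPM at 16 h. Neither time overlapped, with differences of -1.32 ± 0.31 (adjusted p = 0.00362) and -1.06 ± 0.29 (adjusted p = 0.0205) by edgeR. The 16 h call was lost on the 2 to 16 h libraries alone (adjusted p = 0.0719) and without replicate 1 or 2 of slr-1 (adjusted p = 0.0616 and 0.0773) or replicate 1 or 2 of CASP1::shy2-2/slr-1 (adjusted p = 0.0511 and 0.122). AT1G48690, a member of the GH3 family of enzymes that conjugate auxin and other hormones, was lower, with a difference of -0.72 ± 0.17 (adjusted p = 0.0029) at 2 h and -0.54 ± 0.16 (adjusted p = 0.0254) at 4 h, and was not called at 8 h (-0.3 ± 0.16, adjusted p = 0.224) or 16 h (-0.23 ± 0.16, adjusted p = 0.424). From 4 to 16 h it rose by 0.7 ± 0.16 (adjusted p = 0.00117) in CASP1::shy2-2/slr-1.

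AT1G77330 (ACO5), an ACC oxidase of ethylene synthesis, stood at 111, 110.5 and 126 CPM in slr-1 and 74.4, 48.4 and 63.8 CPM in CASP1::shy2-2/slr-1 at 16 h. The libraries did not overlap, and the difference was -0.89 ± 0.22 (adjusted p = 0.00863) by edgeR. It missed the threshold without replicate 2 of CASP1::shy2-2/slr-1 (adjusted p = 0.0768) and without both replicates 3 of 16 h (adjusted p = 0.0608). The gene rose from 4 to 16 h in slr-1, by 0.78 ± 0.22 (adjusted p = 0.00748), and changed by 0.44 ± 0.22 (adjusted p = 0.106) in CASP1::shy2-2/slr-1. The difference of these changes, -0.34 ± 0.31, was not called (adjusted p = 0.684, edgeR). At 24 h the values were 68.9, 66 and 66.7 and 74.6, 80.0 and 79.9 CPM.

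Of the 6 signalling genes, 3 changed differently between the genotypes from 4 to 16 h, against 2.18% of all genes in that direction. ANNAT7 (AT5G10230, chromosome 5, 3209497 to 3211483, minus strand), an annexin, of a family that binds membranes in a calcium-dependent way, had the largest such difference among the members. In slr-1 it stood at 65.4, 65.2 and 66.7 CPM at 2 h, 112, 99.5 and 72.5 CPM at 4 h, 31, 35.5 and 25.9 CPM at 8 h and 3.83, 4.06 and 5.94 CPM at 16 h. In CASP1::shy2-2/slr-1 it stood at 7.67, 11.7 and 7.79 CPM, 30.0, 9.1 and 14.4 CPM, 10.0, 9.32 and 19.4 CPM and 14.5, 15 and 17.1 CPM. The slr-1 libraries were all higher at 2, 4 and 8 h and all lower at 16 h. The difference was -2.88 ± 0.31 (adjusted p = 1.22e-07) at 2 h, -1.24 ± 0.29 (adjusted p = 0.00437) at 8 h and 1.76 ± 0.31 (adjusted p = 0.000247) at 16 h (edgeR). In slr-1 the change from 4 to 16 h was -4.44 ± 0.33 (adjusted p = 6.04e-11), in CASP1::shy2-2/slr-1 -0.27 ± 0.29 (adjusted p = 0.465), and the changes differed by 4.17 ± 0.43 (adjusted p = 3.25e-07).

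AT2G47560 (chromosome 2, 19511717 to 19512728, minus strand) encodes a RING/U-box protein, of a class of ubiquitin ligases. CASP1::shy2-2/slr-1 had 9.06, 11 and 10.6 CPM at 2 h, 24, 16.5 and 19.9 CPM at 4 h, 36.1, 38.5 and 50.1 CPM at 8 h, 60.5, 72 and 65.9 CPM at 16 h and 46, 39 and 36.3 CPM at 24 h. In slr-1 it stood at 22.7, 22.4 and 24.2 CPM at 2 h, 23.6, 26.9 and 21.7 CPM at 4 h and 31.3, 33 and 41.3 CPM at 16 h. All CASP1::shy2-2/slr-1 libraries were below slr-1 at 2 h and above it at 16 h, with differences of -1.2 ± 0.15 (adjusted p = 2.5e-06) and 0.92 ± 0.15 (adjusted p = 6.46e-05) by edgeR. It rose by 1.65 ± 0.15 (adjusted p = 5.2e-09) from 4 to 16 h in CASP1::shy2-2/slr-1 and by 0.47 ± 0.15 (adjusted p = 0.0155) in slr-1, and the changes differed by 1.18 ± 0.21 (adjusted p = 0.00066). Its highest level was at 16 h, before the time used by the choice.

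AT4G26540, a leucine-rich repeat receptor-like kinase, stood at 98.3, 101 and 103 CPM in slr-1 and 25.2, 29.3 and 24.3 CPM in CASP1::shy2-2/slr-1 at 2 h, and at 33.6, 39.7 and 58.7 and 34.1, 42.6 and 47.6 CPM at 16 h. The groups were far apart at 2 h and overlapped at 16 h. The difference went from -1.96 ± 0.19 (adjusted p = 1.83e-08) through -1.17 ± 0.18 (adjusted p = 5.01e-05) at 4 h and -1.12 ± 0.18 (adjusted p = 0.000112) at 8 h to -0.08 ± 0.18 (adjusted p = 0.85) at 16 h (edgeR). In slr-1 it fell from 4 to 16 h, with a change of -0.75 ± 0.18 (adjusted p = 0.00218), and in CASP1::shy2-2/slr-1 it changed by 0.34 ± 0.18 (adjusted p = 0.131), with a difference of 1.09 ± 0.26 (adjusted p = 0.0111) that missed the threshold on the 2 to 16 h libraries alone (adjusted p = 0.0508). The AGC kinase gene UCNL (AT3G20830), related to the growth regulator UNICORN, was lower in CASP1::shy2-2/slr-1 at 2 h (edgeR), the difference being -1.04 ± 0.18 (adjusted p = 0.00018), at 29.6, 22.6 and 29 against 53.9, 57.4 and 53.5 CPM, and was not called later.

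RBK1 (AT5G10520), a kinase that binds ROP GTPases, rose from 4 to 16 h in CASP1::shy2-2/slr-1, the gain being 0.82 ± 0.15 (adjusted p = 9.64e-05), from 9.18, 12.1 and 10.4 to 18.7, 20.3 and 19.6 CPM. In slr-1 it changed by 0.28 ± 0.15 (adjusted p = 0.156). The protein phosphatase 2C gene AT4G32950 fell from 4 to 16 h in both genotypes, with a change of -1.23 ± 0.40 (adjusted p = 0.0143) in CASP1::shy2-2/slr-1 and -2.07 ± 0.42 (adjusted p = 0.000377) in slr-1 (edgeR). CASP1::shy2-2/slr-1 had 37.3, 55.9 and 34.4 CPM at 8 h, 13.6, 15.2 and 9.4 CPM at 16 h and 24.9, 35.8 and 38 CPM at 24 h, a course with 2 high points.

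The 3 transcription factor genes other than ORA59, described above with the hormone genes, rose from 4 to 16 h in CASP1::shy2-2/slr-1, and 2 of them in slr-1, against 24.1 and 17.2% of all genes. OFP1 (AT5G01840), a repressor of the OVATE family, stood at 19, 19.4 and 19.4 CPM in slr-1 and 9.35, 8.61 and 9.43 CPM in CASP1::shy2-2/slr-1 at 2 h, and at 35.9, 34.3 and 29.8 and 30.6, 34.1 and 19.6 CPM at 16 h. The latter line was lower, with a difference of -1.1 ± 0.17 (adjusted p = 2.5e-05) at 2 h and -0.97 ± 0.16 (adjusted p = 0.000126) at 8 h, and differed by -0.23 ± 0.16 (adjusted p = 0.411) at 16 h (edgeR). It rose by 1.24 ± 0.16 (adjusted p = 1.62e-06) in CASP1::shy2-2/slr-1 and 0.97 ± 0.16 (adjusted p = 3.89e-05) in slr-1. MYBC1 (AT2G40970), a factor with a single MYB-like domain, rose by 1.22 ± 0.28 (adjusted p = 0.00107) in CASP1::shy2-2/slr-1, to 24.4, 25.7 and 60.5 CPM at 16 h, where replicate 3 stood far above the others. Untreated it stood at 33, 33.1 and 23.7 CPM in slr-1 and 6.49, 7.12 and 4.72 CPM in CASP1::shy2-2/slr-1, and at 24 h at 18.9, 25 and 23.9 and 22.1, 26.8 and 31.2 CPM. NAC011 (AT1G32510) stood at 0.316, 0.271 and 0.256 CPM at 4 h and 2.02, 2.42 and 1.57 CPM at 16 h in CASP1::shy2-2/slr-1, and rose by 2.75 ± 0.37 (adjusted p = 2.39e-06) there and by 1.37 ± 0.34 (adjusted p = 0.00271) in slr-1.

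Of the 5 genes of metabolism, 3 changed differently between the genotypes from 4 to 16 h, again against 2.18% of all genes. The cis-prenyltransferase gene cPT5 (AT5G58780), whose enzyme makes polyprenyl chains, stood at 21.3, 18.1 and 20.3 CPM in slr-1 and 0.663, 2.02 and 1.57 CPM in CASP1::shy2-2/slr-1 at 2 h. At 16 h it stood at 4.71, 4.06 and 4.41 and 2.9, 2.9 and 1.77 CPM, so the groups were apart at both times while the gap narrowed. The difference was -3.84 ± 0.26 (adjusted p = 1.76e-11) at 2 h, -3.05 ± 0.25 (adjusted p = 1.27e-09) at 8 h and -0.78 ± 0.24 (adjusted p = 0.0361) at 16 h (edgeR). The last was lost on the 2 to 16 h libraries alone (adjusted p = 0.0972), without replicate 1 or 2 of slr-1 (adjusted p = 0.137 and 0.0671), without replicate 2 or 3 of CASP1::shy2-2/slr-1 (adjusted p = 0.0508 and 0.175) and without both replicates 3 (adjusted p = 0.203). From 4 to 16 h cPT5 rose in CASP1::shy2-2/slr-1, the gain being 1.18 ± 0.26 (adjusted p = 0.000823), and fell in slr-1, with a change of -1.86 ± 0.23 (adjusted p = 4.12e-07), a difference of 3.05 ± 0.35 (adjusted p = 1.82e-06). At 24 h the values were 6.45, 6.06 and 5.27 CPM in slr-1 and 3.39, 4.39 and 4.42 CPM in CASP1::shy2-2/slr-1, still the lower.

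CYP76C1 (AT2G45560), a cytochrome P450 known for the oxidation of linalool, stood at 12.6, 10.2 and 18.3 CPM in slr-1 and 2.41, 2.72 and 1.59 CPM in CASP1::shy2-2/slr-1 at 8 h, and at 6.01, 5.43 and 8.58 and 6.01, 6.69 and 5.02 CPM at 16 h. The groups were apart at 8 h and overlapped at 16 h, with differences of -2.6 ± 0.27 (adjusted p = 9.27e-08) and -0.17 ± 0.26 (adjusted p = 0.754) by edgeR. It rose from 4 to 16 h in CASP1::shy2-2/slr-1, the gain being 1.56 ± 0.28 (adjusted p = 6.96e-05), changed by -0.05 ± 0.26 (adjusted p = 0.905) in slr-1, and the changes differed by 1.61 ± 0.37 (adjusted p = 0.0108). AT3G26760, of the NAD(P)-binding Rossmann-fold proteins, stood lower in CASP1::shy2-2/slr-1 at 2 h (edgeR), the difference being -1.79 ± 0.19 (adjusted p = 1.02e-07), at 17.7, 11.3 and 22.3 against 49.6, 57.7 and 67.5 CPM. It rose in CASP1::shy2-2/slr-1 from 4 to 16 h, by 0.52 ± 0.18 (adjusted p = 0.0236). The difference from slr-1, 0.97 ± 0.26 (adjusted p = 0.0287), was lost without replicate 3 of slr-1 at 4 h, its replicate 1 or 3 at 16 h, replicate 1 or 2 of CASP1::shy2-2/slr-1 at 4 h or its replicate 1 or 3 at 16 h, with adjusted p from 0.0503 to 0.0866.

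GLL22 (AT1G54000), a GDSL lipase-like protein, was among the members with a peak in slr-1. It stood there at 549, 544 and 443 CPM at 4 h, 588, 542 and 788 CPM at 8 h and 290.5, 318 and 340.4 CPM at 16 h, and fell from 4 to 16 h, with a change of -0.78 ± 0.27 (adjusted p = 0.0262). CASP1::shy2-2/slr-1 had 362, 219 and 205 CPM at 4 h and was lower, with a difference of -0.97 ± 0.27 (adjusted p = 0.0144), and it had 568, 527 and 372 CPM at 8 h, where it was not called (-0.37 ± 0.27). At 24 h the values were 116, 157 and 174 CPM in slr-1 and 783, 685 and 649 CPM in CASP1::shy2-2/slr-1, without overlap.

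AT1G12010, a 2-oxoglutarate and iron dependent oxygenase by its annotation, stood at 20.5, 21.5 and 31.8 CPM in slr-1 and 45.9, 49.9 and 70.9 CPM in CASP1::shy2-2/slr-1 at 16 h, again without overlap. It was higher in the latter by 1.18 ± 0.30 (adjusted p = 0.00979), and rose there from 4 to 16 h by 1.45 ± 0.30 (adjusted p = 0.000384) (edgeR). The 16 h call was lost without replicate 1 or 2 of slr-1 (adjusted p = 0.0653 and 0.0620) or replicate 3 of CASP1::shy2-2/slr-1 (adjusted p = 0.0656). The product name of AT1G12010 is also that of AT1G77330 (ACO5), which had a 16 h difference of -0.89 ± 0.22. The reference used here lists no ACC oxidase name for AT1G12010, which does not show that it is not one.

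The 6 remaining members carry only a family or superfamily name, or are listed as uncharacterized, in the reference used here. That does not show whether a function is known. AT5G28000 (chromosome 5, 10020653 to 10021430, plus strand), of a superfamily of polyketide cyclases and lipid transport proteins, was almost silent in slr-1, with 0 to 0.154 CPM in its 18 libraries. In CASP1::shy2-2/slr-1 it stood at 0.251, 0.557 and 0.406 CPM in the controls, 0.0974, 0.148 and 0.128 CPM at 4 h, 0.429, 0.459 and 0.0735 CPM at 8 h, 3.84, 3.81 and 2.06 CPM at 16 h and 2.26, 2.43 and 2.81 CPM at 24 h. It was higher than in slr-1 by 5.94 ± 0.61 (adjusted p = 8.4e-08) at 16 h and rose from 4 to 16 h by 4.6 ± 0.54 (adjusted p = 4.9e-07), by edgeR. With so few slr-1 reads the fitted size of the 16 h difference depends on the prior count.

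AT1G72490 stood in slr-1 at 11.2, 11 and 15.4 CPM in the controls and 77.7, 59.3 and 55.1 CPM at 2 h, and in CASP1::shy2-2/slr-1 at 2.84, 3.67 and 2.9 and 3.52, 9.03 and 1.64 CPM. The groups did not overlap, and the difference was -3.77 ± 0.58 (adjusted p = 2.96e-05) at 2 h and -2.37 ± 0.53 (adjusted p = 0.00314) at 8 h by edgeR. In slr-1 it was back at 14.6, 12.7 and 10.3 CPM at 24 h. AT5G36960 stood at 2.05, 2.39 and 2.42 CPM in slr-1 and 0.754, 0.863 and 0.973 CPM in CASP1::shy2-2/slr-1 at 4 h, and at 1.78, 2.6 and 1.93 and 2.52, 2.09 and 1.86 CPM at 16 h. Its change from 4 to 16 h differed by 1.46 ± 0.41 (adjusted p = 0.0433), a call kept without the 16 h replicate 2 of slr-1 or the 16 h replicate 3 of CASP1::shy2-2/slr-1 and lost without any of the other 10 libraries (adjusted p from 0.0571 to 0.108).

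The WD40 repeat gene AT1G11160 and AT4G07820, of the CAP superfamily that holds the pathogenesis-related protein PR-1, were called in none of the 7 tests (edgeR, smallest p before adjustment 0.0238 and 0.0474). In CASP1::shy2-2/slr-1 AT4G07820 stood at 1.71, 3.22 and 1.5 CPM untreated and 10.7, 5.93 and 9.5 CPM at 2 h, and at 24 h at 6.39, 4.9 and 5.88 CPM against 13.5, 11.7 and 10.0 CPM in slr-1. AT2G04460, annotated as a pseudogene, stood at 1.94, 1.54 and 0.526 CPM in slr-1 and 0.379, 0.227 and 0.232 CPM in CASP1::shy2-2/slr-1 at 16 h. The groups did not overlap, and the difference of -2.23 ± 0.56 (adjusted p = 0.0107) was lost without replicate 1 of slr-1 (adjusted p = 0.0884) or replicate 2 of CASP1::shy2-2/slr-1 (adjusted p = 0.0622, edgeR). At 24 h it stood at 0.156, 0.13 and 0.182 and 0.579, 1.96 and 1.11 CPM, the reverse order.

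The members were spread over many gene families. Of 54 annotation lists drawn by name patterns, 15 held a member and none held more than 2, but the patterns missed AT1G48690 (GH3), ORA59 (AP2/ERF) and MYBC1, whose families have lists. AT1G12010, which shares its product name with AT1G77330 of the ethylene list, was in no list either. Of 27 iron genes tested, 18 rose and 3 fell from 4 to 16 h in CASP1::shy2-2/slr-1 (median 1.1), and 16 rose and 2 fell in slr-1 (median 0.85). Of 24 expansins, 9 rose and 3 fell in CASP1::shy2-2/slr-1, 6 rose and 2 fell in slr-1, and the changes differed for 1 in each direction. Of 20 dirigent genes, 9 fell in CASP1::shy2-2/slr-1, 1 rose and 10 fell in slr-1, and the changes differed for 2, both toward a more positive change in CASP1::shy2-2/slr-1. Of 179 cytochrome P450 genes, 13 were higher and 11 lower in CASP1::shy2-2/slr-1 at 16 h, and of 77 peroxidases 6 were higher and 6 lower. Of 36 SAUR genes 5 were lower at 16 h, and of 37 ethylene genes 4. The median over all genes tested was 0.02 for the change in either genotype and 0.00 for the difference at 16 h.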

How the data were processed

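Messenger RNA was sequenced in 36 libraries, 3 in each of 12 groups. The deposited files hold whole-number read counts per gene and library. The authors' tools, per the submitters' processing notes, were cutadapt 1.3, HTSeq 0.6.1 and STAR 2.4.0a, with TAIR10 as the build. Settings, and thus the use of strand in counting, are not given in the sources used here, so reads of overlapping or antisense genes may be shared. Summary categories that name no gene (5.28 to 11.2% of each file) were left out. Symbols, products and upstream sequence came from the RefSeq TAIR10.1 reference, which held all 37 members. Its coordinates were printed for identity only.

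CPM was the count per 1 M reads in genes. Tests were edgeR 4.0.16 quasi-likelihood fits (R 4.3.3) over all 36 libraries and 12 groups, with TMM factors (0.939 to 1.07) and the filterByExpr filter, which left 20939 genes. P-values were adjusted by Benjamini-Hochberg over all of these, with a threshold of 0.05, and values after ± are standard errors with 3 libraries a group. The scripts were tested on simulated data. The members, role groups and lists were chosen with earlier results of these data known. The naming rule took members with the largest rise at 24 h, the smallest p at 16 h and in the comparison of changes, the highest level at 24 h, and loci next to the limits. All other members were named after their values were seen, so that each is accounted for. Same-numbered libraries correlated in their deviations at 16 h (0.52, 0.23 and 0.66) but not throughout in the other comparisons. The main fits took no account of these numbers, so the printed 16 h differences, standard errors and p-values are unpaired. Blocks by replicate number, over all groups or at 16 h alone, were fitted only as alternatives. Alternatives were total count and RLE scaling, DESeq2 1.42.0, no filter, 2 to 16 h libraries alone, suffix n as a term, a replicate block, a threshold of 0.01, 2 h in place of 4 h, other settings of the rule and each library left out.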

Additional observations from a re-analysis of the deposited data

Results flagged for a closer look

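For 9 members the change from 4 to 16 h of NAA differed between the genotypes by the test of that difference (edgeR, adjusted p under 0.05). In log2 units, CASP1::shy2-2/slr-1 minus slr-1, it was 4.17 for ANNAT7, 3.05 for cPT5, 2.63 for AT2G21100 and 1.61 for CYP76C1. It was 1.46 for AT5G36960, 1.24 for EXPA9, 1.18 for AT2G47560, 1.09 for AT4G26540 and 0.97 for AT3G26760. The difference of ANNAT7, AT2G21100 and AT4G26540 went with a called fall in slr-1 and no called change in CASP1::shy2-2/slr-1. That of CYP76C1, AT3G26760 and AT5G36960 went with a called rise in CASP1::shy2-2/slr-1 and no called change in slr-1. For cPT5 both changes were called, in opposite directions, and EXPA9 and AT2G47560 rose in both genotypes. At an adjusted p of 0.05 and under settings other than a left-out library, the calls of ANNAT7, cPT5, CYP76C1 and AT2G47560 were kept. On the 2 to 16 h libraries alone those of EXPA9 (adjusted p = 0.0848), AT3G26760 (0.0802), AT4G26540 (0.0508) and AT5G36960 (0.118) were lost. With 2 h in place of 4 h, that of AT2G21100 was lost (adjusted p = 0.189). Without both 16 h libraries of suffix n, those of EXPA9 (adjusted p = 0.0920), AT3G26760 (0.104) and AT5G36960 (0.0679) were lost. AT5G36960 was also lost with total count scaling (adjusted p = 0.0524), with no filter (0.0522) and with the replicate block (0.0510).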

How the results depend on the processing

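Of 268 counts recomputed under settings other than a left-out library, 234 stayed within 1.5 times of the value given. Members called at 16 h or in the comparison of changes gave 189 single results under these settings. Of these, 16 lost the call and none reversed. With 1 library left out, 41 of 174 lost it and none reversed. The rule took 19 loci with a pseudocount of 5, 75 with an slr-1 limit of 0.5 (37 of them members), 16 with -0.5 and 11 with a rise of at least 1.5. On the 2 to 16 h libraries alone, 3 members were lower at 16 h and 1 higher at 4 h, with cPT5 and AT5G20820 lost at 16 h (adjusted p = 0.0972 and 0.0719). The difference of changes was then called for 6 members, and 4 of the 9 were lost. With suffix n as a term, 1, 1 and 3 members were higher at 8, 4 and 2 h, and 1277 genes were higher at 16 h, 3171 higher and 3138 lower at 2 h. At an adjusted p under 0.01, members counted 2 lower at 16 h, 1 higher at 8 h, 1 higher at 4 h, 4 for the difference of changes and 0 lower from 4 to 16 h in CASP1::shy2-2/slr-1 (edgeR, where 2 members were lower at an unadjusted p under 0.05 and DESeq2 called 1). Genes higher and lower then counted 368 and 595 at 16 h, 605 and 819 at 8 h, 598 and 877 at 4 h, 946 and 1100 at 2 h, 1997 and 2202 in slr-1 from 4 to 16 h, and 234 and 135 for the difference of changes. With 2 h in place of 4 h, 2 members fell in CASP1::shy2-2/slr-1, 5691 genes rose and 4959 fell in slr-1, and 504 differed downward. Leaving out both 16 h libraries of suffix n, chosen after seeing the data, left 2 members lower at 16 h. The causes were not tested.

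With a replicate block over all groups, 6 members were higher and 5 lower at 16 h and 8 changed differently. AT5G36960 was lost (adjusted p = 0.0510) and no count moved by over 1.5 times. Blocked at 16 h alone, a fit added after seeing the data, 6, 5 and 12 were called.

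Leaving out 1 library gave these ranges. Loci by the rule ran from 33 to 57. Members higher and lower ran at 16 h from 4 to 6 and 1 to 5, at 8 h from 1 to 3 and 9 to 12, at 4 h from 1 to 2 and 9 to 15, and at 2 h from 1 to 3 and 15 to 16. From 4 to 16 h they ran in CASP1::shy2-2/slr-1 from 20 to 24 and 1 to 2, in slr-1 from 7 to 10 and 5 to 8, and for the difference from 6 to 10 and 0 to 0. Genes higher and lower ran at 16 h from 416 to 1557 and 676 to 1717, at 8 h from 784 to 1432 and 896 to 1886, at 4 h from 682 to 1782 and 862 to 1851, and at 2 h from 1120 to 2861 and 1204 to 2872. From 4 to 16 h they ran in CASP1::shy2-2/slr-1 from 3580 to 5343 and 3136 to 5149, in slr-1 from 2129 to 4472 and 2488 to 3737, and for the difference from 313 to 565 and 192 to 632. Depth limits AT5G28000 and AT2G04460, with few reads in several groups.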
